A study of Bos taurus with 90 samples.

Results

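Mural granulosa cells (MGCs) of medium and large bovine antral follicles were compared in 7 libraries of the 90 in the series, 3 from medium follicles (M5, M6 and M8) and 4 from large follicles (L5, L8, L9 and L10). Each library holds the MGCs of a single follicle of a Bos taurus cow ovary from a slaughterhouse, without any treatment or genetic change. These follicles are the medium and large ones among the 10 that the study named as healthy, a choice made from marker gene levels, FSHR among them, and from the apoptosis activity of these same MGC libraries. A second set of 11 MGC libraries, 5 from medium follicles (M1, M2, M3, M4 and M7) and 6 from large follicles (L1, L2, L3, L4, L6 and L7), had passed the quality filters of the study but lay outside the healthy set, and it served to ask whether each change was also found there. The medium follicles that the quality filters removed, 2 in number, entered only alternatives.

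MGCs line the wall of the antral follicle, on the inner side of the basement membrane, while the cumulus cells (CCs) surround the oocyte. As background, MGCs of growing follicles divide under follicle stimulating hormone and turn androgen into oestrogen, and those of follicles that pass selection slow their division and acquire the receptor for luteinizing hormone. Follicles of one diameter can be growing, dominant or at the onset of atresia, the degeneration that most follicles undergo, so that diameter alone does not fix the state of their MGCs.

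The healthy medium follicles measured 6.7 to 7.0 mm and the healthy large follicles 10.2 to 11.6 mm. The other medium follicles measured 6.2 to 7.0 mm and the other large follicles 9.6 to 11.2 mm. Total counts were 34289259 to 39266980 in the 7 healthy libraries and 30589555 to 37626999 in the 11 others, with 16448 to 17235 and 16211 to 17733 genes detected. The cows behind single follicles are not stated, and according to the methods 10 follicles of a size class came from at least 5 animals, so that some follicles may share an animal and p-values over follicles may be too small. The first digits of the follicle identifiers, here called the prefix and of unstated meaning, were shared by M5 and M8. The 3 healthy small follicles, whose spread also entered the fit, all shared another prefix. No prefix was shared between the healthy medium and the healthy large follicles, so that prefix and stage cannot be told apart among them. Genes are given by Ensembl identifier in the deposited table, which does not pair them with symbols. The genes are therefore described by their direction of change and by their levels in CCs, oocytes and single follicles, and 4 identifiers are given.

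The 7 libraries were first compared with each other. Of 14725 genes tested, 1178 (8.00%) were differentially expressed genes (DEGs) between medium and large healthy follicles, with a fold change above 2 and an adjusted p under 0.05 (edgeR quasi-likelihood test, Benjamini-Hochberg). In large follicles 491 genes rose (3.33% of those tested) and 687 fell (4.67%). The median log2 fold change was 1.55 among the rising DEGs and -1.74 among the falling DEGs, against 0.05 over all genes tested. The change was above 4-fold in 136 rising and 248 falling DEGs, and in 994 of all genes tested, in either direction. Most DEGs were well expressed, with an average log2 CPM (counts scaled to a common library total) of at least 3 in 65.6% of the rising and 73.8% of the falling DEGs, against 61.5% of all genes tested. On a scale of presence, 13 rising DEGs were below 1 CPM in every healthy medium library and above it in every large one, and 21 falling DEGs showed the opposite. Of all genes tested, 30 showed the first pattern and 36 the second, so many such genes were not DEGs.

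The falls were even across the 4 large follicles, and the rises were not. The levels of 668 of 687 falling DEGs (97.2%) did not overlap between the 3 medium and 4 large libraries, as against 366 of 491 rising DEGs (74.5%). Of all genes tested, 20.5% did not overlap, 12.3% with the large libraries lower and 8.16% with the large libraries higher. The library that overlapped was mostly L10. In L5, L8 and L9 at least 490 of the 491 rising DEGs lay above all 3 medium libraries, whereas in L10 this was so for 368. The falling DEGs lay below all 3 medium libraries in 675 to 685 of 687 cases in each of the 4 large follicles. Of all genes tested, 36.7% to 42.4% lay above all 3 medium libraries in L5, L8 and L9, and 18.4% in L10. Below all 3 lay 24.5% to 35.5% in L5, L8 and L9, and 41.1% in L10. L10 was thus lower over all genes as well, and its fewer rises are not particular to the DEGs. These genes were chosen on these libraries, so the counts are a description.

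The number of DEGs depended on single follicles. With M6 left out it was 376, of which 63 rose, and with M8 left out it was 465, of which 109 rose. Without L8 or L9 it was 686 or 762, and without M5 or L5 it was 1082 or 1127. Without L10 it rose to 2374, of which 1194 rose and 1180 fell. Of the DEGs, 53 rising and 255 falling genes were called with each of the 7 libraries left out in turn, and all 308 of them were also called by DESeq2. With the spread estimated from the 7 libraries alone, without the 3 healthy small follicles, 109 genes rose and 365 fell.

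**Figure D1:**
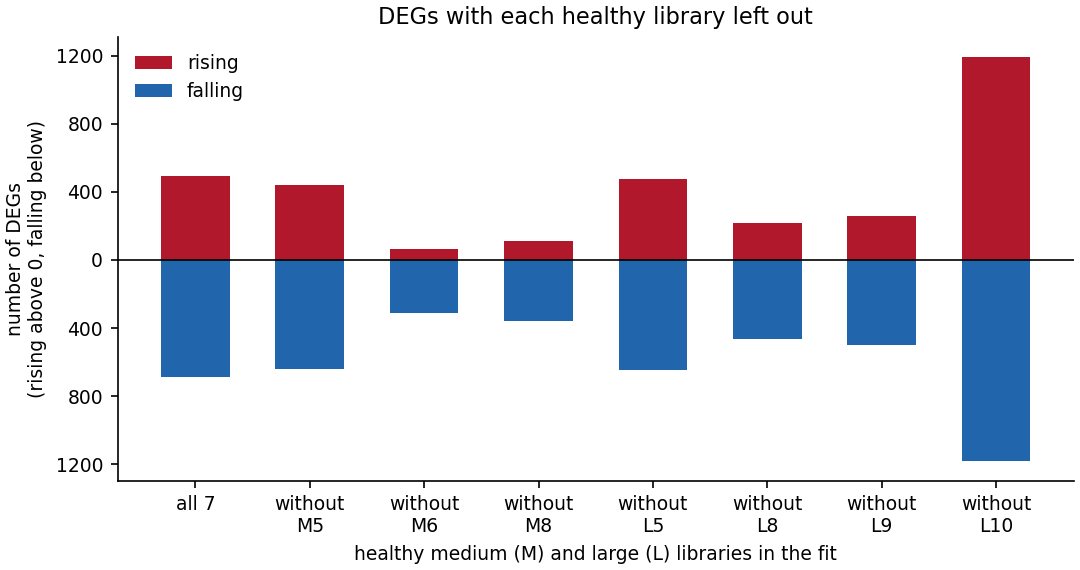
Numbers of DEGs between medium and large healthy follicles with all 7 libraries and with each left out in turn; bars above 0 count rising genes and bars below 0 falling genes. The numbers were lowest without M6, with 63 rising and 313 falling genes, and highest without L10, with 1194 and 1180.

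Among the 230 rising and 496 falling DEGs whose average log2 CPM was 3 or more and whose medium and large libraries did not overlap, the largest rise was that of ENSBTAG00000008827. It measured 3.33, 0.746 and 4.51 CPM in M5, M6 and M8, and 41.3, 259, 30.8 and 56.5 CPM in L5, L8, L9 and L10. The lowest large library thus lay above the highest medium library, and L8 stood above the other large ones. The means were 2.86 ± 1.92 CPM (SD, n = 3) and 96.8 ± 108 CPM (SD, n = 4), and large exceeded medium by 5.02 on the log2 scale (SE 0.92, adjusted p = 0.00924, edgeR). Outside MGCs the gene had a median of 0.318 CPM and a highest level of 12.9 CPM in 18 CC libraries of medium and large follicles, and a median of 0.212 and a highest level of 10.5 CPM in the 18 oocytes. The highest of these were above the healthy medium MGCs.

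In the other follicles ENSBTAG00000008827 was high at both stages. Levels in the other medium follicles M1, M2, M3, M4 and M7 were 11.3, 385, 323, 1061 and 734 CPM. The other large follicles had a lowest level of 31.4, a median of 424 and a highest level of 1907 CPM. All 5 other medium libraries were above all 3 healthy medium ones, and 4 of them were above all 4 healthy large ones. The log2 fold change from medium to large was 0.29 there (SE 1.19, adjusted p = 1, edgeR).

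The next largest rise was that of ENSBTAG00000010977, with 2.62, 1.2 and 2.01 CPM in M5, M6 and M8, and 23.3, 45.0, 20.1 and 3.42 CPM in L5, L8, L9 and L10. The large libraries were all above the medium ones, but L10 exceeded M5 by little. The log2 fold change was 3.49 (SE 0.63, adjusted p = 0.00912, edgeR). In the other follicles the gene was at 9.51 to 15.8 CPM in the 5 medium libraries and at 46.1, 21.9, 25, 67.2, 0.372 and 56.7 CPM in L1, L2, L3, L4, L6 and L7. Here 5 of 6 large follicles were above all 5 medium ones, and L6 was below them. The log2 fold change was 1.64 (SE 0.65), which did not pass the test over all genes (p = 0.0208 before and 1 after adjustment, edgeR). This gene had a median of 0.889 CPM in CCs and was highest in oocytes, at 46.0 to 125 CPM in all 18.

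The largest fall was that of ENSBTAG00000008452, with 32.8, 91.5 and 28.9 CPM in M5, M6 and M8. In the healthy large follicles it fell to 0.387 CPM in L5, 0.772 in L8, 0 in L9 and 0.107 in L10, from 27 counts in L8 down to 0 counts in L9. The groups were far apart, and the log2 fold change was -7.34 (SE 0.86, adjusted p = 0.00201, edgeR), a value whose size depends on the few counts of the large libraries. In the other medium follicles M1, M2, M3, M4 and M7 the levels were 8.83, 0.215, 0, 0 and 3.96 CPM, all below the healthy medium ones. Of the other large follicles, L6 had 18.8 CPM, L2 had 2.94 and the remaining 4 had at most 0.0638. In the other follicles the log2 fold change was 0.59 (SE 1.90, adjusted p = 1, edgeR).

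The second fall, that of ENSBTAG00000039261, took the same shape. It measured 54.7, 130 and 132 CPM in M5, M6 and M8 against 10.2, 0.972, 0.583 and 7.71 CPM in L5, L8, L9 and L10, which gave a log2 change of -4.37 (SE 0.83, adjusted p = 0.0104, edgeR). Among the other follicles it had 26.3, 3.60, 0.0297, 0.125 and 10.5 CPM in the medium libraries M1, M2, M3, M4 and M7, and 0 to 17.8 CPM in the 6 large ones. The stages overlapped there, and the log2 fold change was -0.85 (SE 1.51, adjusted p = 1, edgeR). Both falling genes were abundant in CCs, at 181 to 3846 and 337 to 6246 CPM in the 18 CC libraries of medium and large follicles. All 4 genes were called with each healthy library left out in turn.

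**Figure D2:**
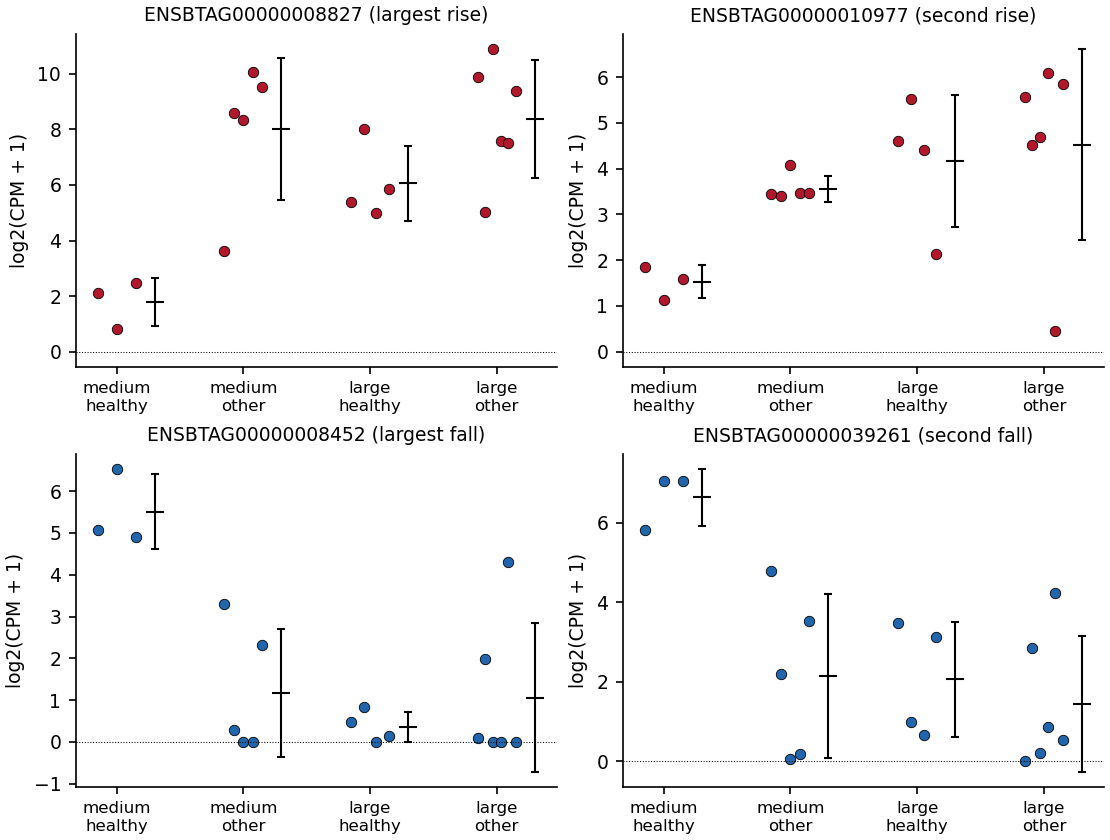
The 4 named genes in the MGC libraries of medium and large follicles, on a log2(CPM + 1) axis; each point is a follicle, and the bar beside the points is the mean ± SD of the log2 values. Apart from M1, the other medium follicles lie nearer to the mean of the healthy large ones than to that of the healthy medium ones for all 4 genes.

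The same comparison was then made in the 11 other follicles. None of 14876 genes was a DEG between 5 medium and 6 large follicles (0%), with edgeR and with DESeq2, although 505 genes (3.39%) had an unadjusted p under 0.05 in edgeR and 666 in DESeq2. Over all genes tested, the median SE of the log2 fold change was 0.37 in the other and 0.31 in the healthy follicles. It was 0.47 for the rising and 0.51 for the falling DEGs, as against 0.37 and 0.34 in the healthy follicles. The choice of DEGs in the healthy fit favours genes with a small SE there, so this wider gap is a description. The median log2 fold change there was 0.26 for the rising DEGs and -0.15 for the falling DEGs, beside 0.00 over all genes. The DEGs were chosen for large changes in the healthy libraries, so that smaller values in other libraries are a description.

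By direction, 368 of the 491 rising DEGs (74.9%) were also higher in large follicles of the other set, where 50.6% of all genes were higher. With an unadjusted p under 0.05, 38 rising DEGs (7.74%) were higher there, against 2.15% of all genes, and 0 were lower. Of the 687 falling DEGs, 450 (65.5%) were also lower in large follicles, where 49.2% of all genes were lower. With an unadjusted p under 0.05, 15 falling DEGs (2.18%) were lower, against 1.24% of all genes, and 4 were higher. Of the 308 DEGs called with each library left out, 48 of 53 rising genes (90.6%) and 183 of 255 falling genes (71.8%) had the same direction. Across 14691 genes the log2 fold changes of both sets had a Pearson r of 0.13, a description over genes that are not independent.

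The direction of the falling genes in the other follicles rested on M1. Without M1, 227 of 687 falling DEGs (33.0%) were lower in the large follicles, where 46.0% of all genes were lower, and their median log2 fold change was 0.30. With any of the 10 remaining follicles left out, the share was 54.9% to 85.2%. For the rising DEGs the share was 62.5% to 81.9% over all 11 omissions, and 68.0% without M1. When the 2 medium follicles removed by the quality filters were added, 64.4% of the rising and 51.4% of the falling DEGs kept their direction, with 50.7% and 49.2% of all genes.

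**Figure D3:**
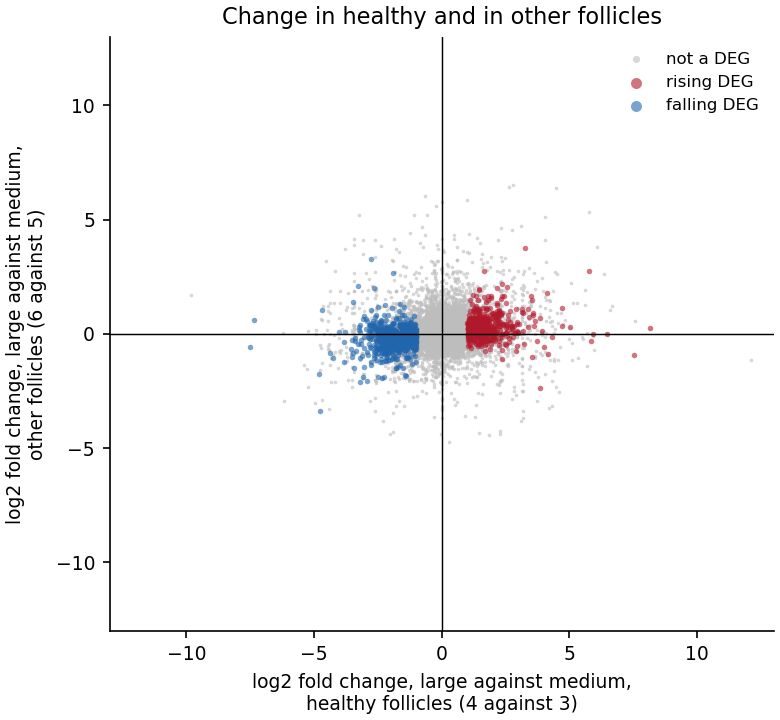
Log2 fold change from medium to large follicles in the healthy follicles (horizontal axis) and in the other follicles (vertical axis), 1 point per gene, with DEGs of the healthy comparison coloured. The rising DEGs have a median of 1.55 on the horizontal and 0.26 on the vertical axis, and the falling DEGs of -1.74 and -0.15.

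The levels by library showed which follicles differed. For each library, the median difference of log2(CPM + 1) from the mean of the 3 healthy medium libraries was taken over the rising and over the falling DEGs. The rising DEGs stood at 1.15, 1.67, 1.56 and 0.56 in L5, L8, L9 and L10, and at 1.11, 1.27, 1.41, 1.32 and 1.27 in the other medium follicles M1, M2, M3, M4 and M7. The other large follicles lay between 0.83 and 2.16. Medium follicles outside the healthy set thus had levels of the rising DEGs within the range of the healthy large follicles, and the median over all genes in these 15 libraries was -0.15 to 0.25.

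For the falling DEGs the healthy large follicles stood at -1.23, -1.69, -1.76 and -1.36. The other medium follicles M2, M3, M4 and M7 stood at -1.53, -1.34, -1.53 and -1.59, within that range, and M1 at -0.55. The other large follicles lay between -1.80 and -1.48 except L2, at -0.64. In each of the other medium follicles, 83.9% to 88.0% of the rising DEGs were above all 3 healthy medium libraries, beside 40.8% to 49.0% of all genes tested. For the falling DEGs, 84.1% to 88.1% were below all 3 in M2, M3, M4 and M7 and 61.9% in M1, beside 25.7% to 30.5% of all genes. The healthy medium values helped to choose these genes, so the distance of other libraries from them is a description and was not tested.

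The healthy small follicles, which also entered the fit but not the contrast, lay between by these medians. The rising DEGs stood at 0.34 to 0.50 and the falling DEGs at -0.96 to -0.73 in the 3 of them. Of the named genes, ENSBTAG00000010977 lay between, at a mean of 16.6 CPM. The rising ENSBTAG00000008827 was below its healthy medium mean (0.559 against 2.86 CPM). The falling ENSBTAG00000008452 (91.1 against 51.1 CPM) and ENSBTAG00000039261 (129 against 106 CPM) were above theirs. In the 6 other small follicles the rising DEGs stood at 0.26 to 1.81 and the falling DEGs at -1.65 to -0.26. The median over all genes was -0.06 to -0.01 in the healthy small and -0.12 to 0.29 in the other small follicles. The genes were chosen for their difference between medium and large libraries, which favours a place between for a further group, so this is a description.

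**Figure D4:**
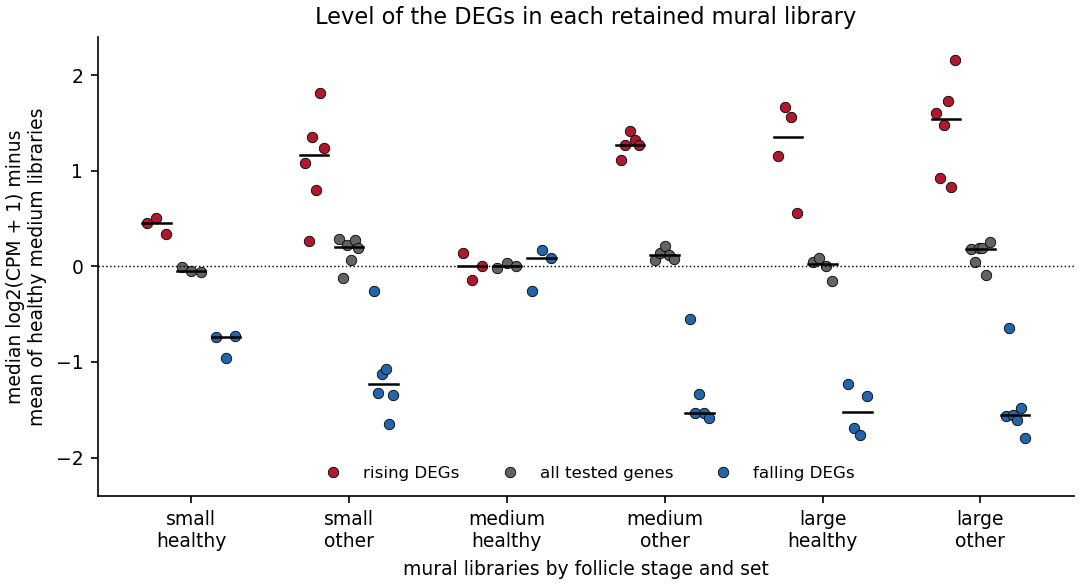
Median log2(CPM + 1) of the rising DEGs, of all tested genes and of the falling DEGs in each retained MGC library, minus the mean of the healthy medium libraries; points are libraries and lines group medians. The other medium follicles lie at 1.11 to 1.41 for the rising DEGs and at -1.59 to -1.34 for the falling DEGs, within the range of the healthy large follicles, except M1, at -0.55 for the falling DEGs.

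Whether the change itself differed between the healthy and the other follicles was tested as an interaction over the 27 retained MGC libraries. No gene passed at an adjusted p under 0.05 with edgeR (0%, lowest adjusted p 0.324), and 1630 of 14910 genes (10.9%) had an unadjusted p under 0.05. DESeq2 called 29 genes, of which 24 were DEGs of the healthy comparison, 3 rising and 21 falling. For the largest fall, ENSBTAG00000008452, the difference in log2 fold change was -8.02 (SE 2.90, adjusted p = 0.368, edgeR), and for the largest rise, ENSBTAG00000008827, it was 4.70 (SE 1.87, adjusted p = 0.412, edgeR). The absence of DEGs in the other follicles is therefore not shown to be a difference from the healthy ones gene by gene. For the 29 genes that DESeq2 called the tools differed, and the healthy set was itself chosen on values of these MGC libraries.

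Follicles that share an identifier prefix gave a further view. Outside the healthy set there were 3 such pairs of a medium and a large follicle. From M2 to L3, 64.8% of the rising DEGs were higher in the large follicle (54.6% of all genes) and 52.7% of the falling DEGs were lower (43.2%). From M7 to L1 the shares were 64.0% (58.6%) and 47.3% (39.4%). From M3 to L2 they were 29.3% (38.6%) and 22% (59.3%), so that in this pair the DEGs moved mostly against their direction in the healthy set. With the prefix as a covariate in the fit of the other follicles, 40.7% of the rising DEGs were higher in the large follicles (47.9% of all genes) and 28.7% of the falling DEGs were lower (52.1%). In a fit of the 27 retained libraries with the prefix as a covariate, 1 of 14910 genes was a DEG, and without the covariate 0 were, with 1662 genes at an unadjusted p under 0.05.

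The levels in the other cell types of the follicle were then compared, taken from the 11 other medium and large follicles so that they share no library with the contrast. In these follicles the rising DEGs were higher in MGCs than in CCs, and the falling DEGs the reverse. Their MGCs already differed from the healthy medium ones in these DEGs, in the direction of the healthy large ones. This difference enters the ratios to CCs and to oocytes, which are therefore a description. Of the 491 rising DEGs, 304 (61.9%) were more than 2-fold lower in CCs than in MGCs, as were 26.3% of all genes, and 18 (3.67%) were more than 2-fold higher, against 16.6%. Of the 687 falling DEGs, 340 (49.5%) were more than 2-fold higher in CCs and 48 (6.99%) more than 2-fold lower. The median log2 ratio of CCs to MGCs was -1.41 for the rising DEGs, 0.99 for the falling DEGs and -0.13 for all genes. MGC libraries were made by standard bulk RNA-seq and CC and oocyte libraries by SMART-seq2, so cell type and protocol cannot be told apart in these ratios.

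The share of DEGs followed this ratio over all genes tested, a description with the same limit. Among 1692 genes more than 4-fold lower in CCs than in MGCs, 10.4% rose and 1.24% fell in the healthy large follicles. Among 669 genes more than 4-fold higher in CCs, 0.448% rose and 18.7% fell. In between, among 8407 genes within 2-fold, 2.01% rose and 3.56% fell. The median log2 fold change from medium to large moved from 0.50 in the first class through 0.03 to -0.74 in the last.

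**Figure D5:**
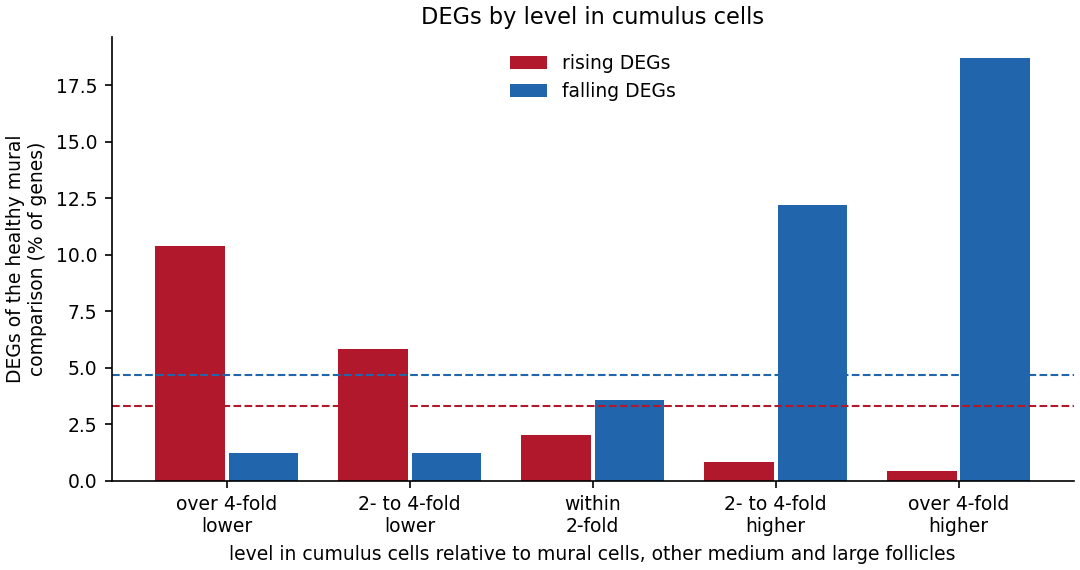
Share of genes that were rising or falling DEGs of the healthy MGC comparison, by their level in CCs relative to MGCs in the other medium and large follicles; dashed lines mark the shares over all tested genes, 3.33% and 4.67%. Rising DEGs make up 10.4% of the genes lowest in CCs, and falling DEGs 18.7% of the genes highest in CCs.

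In the healthy follicles themselves, where the choice of genes enters, neither group leaned far to CCs or to MGCs in medium follicles by its median. The median log2 ratio of CCs to MGCs was -0.23 for the rising and -0.14 for the falling DEGs in medium follicles (-0.04 for all genes). In large follicles it was -1.68 and 1.19 (-0.11 for all genes). Single genes could still be far apart. In the healthy medium follicles ENSBTAG00000008452 averaged 1754 CPM in CCs and 51.1 CPM in MGCs, and ENSBTAG00000039261 1841 and 106 CPM. The CCs of the same follicles gave 0 DEGs from medium to large among 14984 genes (1536 at an unadjusted p under 0.05, edgeR). There, 217 of 489 rising DEGs (44.4%) were higher in CCs of large follicles, beside 48.7% of all genes, and 395 of 687 falling DEGs (57.5%) were lower, beside 51.2%. With an unadjusted p under 0.05, 19 rising DEGs (3.89%) were higher in CCs, beside 4.43% of all genes, and 68 falling DEGs (9.9%) were lower, beside 5.94%. In oocytes, also with 0 DEGs among 14760 genes (1097 at an unadjusted p under 0.05, edgeR), the shares were 46.9% beside 46.7% and 50.6% beside 52.7%, and at an unadjusted p under 0.05 they were 1.71% beside 3.41% and 5.01% beside 4.12%.

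Oocyte levels gave a similar order. Of the falling DEGs 53.9% and of the rising DEGs 16.9% were more than 2-fold higher in oocytes than in MGCs of the other follicles, against 34.5% of all genes, and 60.1% of the rising and 18.8% of the falling DEGs were more than 2-fold lower, against 35.3%. In bulk samples, a larger share of cells of one type and more RNA per cell cannot be told apart.

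Most of 26 genes taken to mark CCs were lower in the healthy large MGCs, as the falling DEGs were. In place of named markers, which need symbols, 26 genes with a mean above 50 CPM in CCs and at least 16-fold higher there than in MGCs and oocytes of the follicles outside the healthy set were taken, a list formed after values were seen. Of these, 8 were falling DEGs (30.8%, against 4.67% of all genes), 0 were rising, and 22 were lower in the large follicles. The median log2 fold change of the 26 was -1.26, beside 0.05 over all genes. The healthy stages did not overlap, with the large libraries lower, in 11 of the 26 and in 12.3% of all genes. One gene gave 21.1% to 95.7% of the summed CPM of the 26 in the 7 libraries. Without it the other 25 summed to 489, 1130 and 809 CPM in M5, M6 and M8, to 199.7, 88.9, 90.5 and 538 in L5, L8, L9 and L10, to 78.6 to 264 in the other medium and 73.8 to 536 in the other large MGC libraries, and to 8140 to 23327 in the CCs of the 7 follicles. M6 and M8 were thus the highest of these 18 MGC libraries, and M5 was below L10 and L6. With that gene included, the sums of all 26 overlapped between the healthy stages, at 993 to 1993 and 746 to 2107 CPM. The rule requires low levels in MGCs outside the healthy set, which for the DEGs stood toward the healthy large ones, so it favours such genes. It also sets SMART-seq2 against bulk libraries. The part of CC transcripts in the falls was not tested.

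The same was done for 467 genes that mark oocytes by the same rule. They summed to 2593 to 3141 CPM in the healthy medium and 1672 to 2005 CPM in the healthy large MGC libraries, which did not overlap. In the other follicles the stages overlapped, at 2034 to 2808 CPM in the medium and 1578 to 2585 CPM in the large MGC libraries. The oocytes of the healthy medium and large follicles had at least 187461 CPM. The median log2 fold change of the 467 genes was -0.01, beside 0.05 over all genes. Among them were 36 falling DEGs (7.71%, against 4.67% of all genes) and 6 rising DEGs (1.28%, against 3.33%). Their part in the falls was not tested either.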

How the data were processed

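RNA-seq of single bovine follicles was used. The deposited values are counts of reads per Ensembl gene, made by the authors with featureCounts on ARS-UCD1.2 without normalization. The methods name STAR and the submitters' processing notes HISAT2 2.2.1, and which made the counts was not settled. Of counts from 1 to 20, 59.5% to 66.6% were even in the 18 medium and large libraries. The 27 retained MGC libraries were grouped by the labels, and the healthy set was taken from the study. The members and lists were chosen with earlier results of these data known.

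Genes were tested if 15 or more retained libraries of the same cell type exceeded 1 CPM (15134 of 27270), less those without a count in a fit. The 10 healthy MGC libraries (3 small) were fitted together with edgeR 4.0.16 (TMM, glmQLFit and glmQLFTest) in R 4.3.3, and the other 17 in a second fit. DESeq2 1.42.0, other scalings, filters, samples and covariates were alternatives. Levels used log2(CPM + 1), in Python 3.11.15. The fits were tested on simulated data. Total counts of 30589555 to 39266980 bound the counting error alone, and the tests use the spread between follicles. Named genes were the 2 largest rises and falls among DEGs without overlap and with an average log2 CPM of 3 or more. Planned gene lists, markers and sequences need symbols and were not analysed here.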

Additional observations from a re-analysis of the deposited data

Results flagged for a closer look

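Within groups of 4 to 6 MGC libraries, 21 sets of values were examined for a library whose gap to its nearest neighbour was large beside the range of its group (Dixon's test at the 95% level), and 6 were found. The rate of 1 in 20 by chance holds for normal and independent values. The CPM values were skewed in several groups and the sets shared libraries, so the number found is a description. ENSBTAG00000008827 was at 259 CPM in L8, above the other healthy large follicles. ENSBTAG00000010977 was at 15.8 CPM in M3, above the other medium follicles outside the healthy set. In L6, among the other large follicles, ENSBTAG00000008452 was at 18.8 CPM and ENSBTAG00000039261 at 17.8 CPM, and L6 also had the lowest level of the rising gene ENSBTAG00000010977. The median level of the falling DEGs relative to the healthy medium libraries was -0.55 in M1, above the other 4 medium follicles outside the healthy set, and -0.64 in L2, above the other 5 large ones.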

How the results depend on the processing

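The 1178 DEGs (491 rising, 687 falling) were 1847 with DESeq2 (913 rising), 474 with the medium and large libraries alone (109 rising, 365 falling), 0 with the 27 retained and 0 with all 30 MGC libraries (0 in each direction), 1 with the 27 retained libraries and the prefix as a covariate together (0 rising, 1 falling) and 2233 at an unadjusted p (1182 rising, 1051 falling). The cause of these shifts was not tested. DESeq2's size factors, filterByExpr, no filter and halved counts, the last chosen after seeing the data, kept the number within 1.5 times. Leaving out 1 healthy library gave 376 (without M6) to 2374 (without L10) DEGs, with 63 to 1194 rising and 313 to 1180 falling. In the other follicles the number was 0 with DESeq2's size factors, with DESeq2 and with each follicle left out (345 to 980 genes at an unadjusted p under 0.05), and 326 at an unadjusted p.

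The 818 DEGs with the same direction in the other follicles became 397 with the prefix as a covariate, added after seeing the data, 271 to 1381 without 1 healthy library and 561 to 983 without 1 other follicle. Those that also had an unadjusted p under 0.05, 53, became 112 with DESeq2 in both fits, 32 with the 2 removed medium follicles, 21 with the prefix, 12 to 75 without 1 healthy library and 33 to 95 without 1 other follicle. The interaction, 0 genes with edgeR, gave 29 with DESeq2 and 1630 at an unadjusted p. The 4 named genes kept their calls with DESeq2 and its size factors and lost them with the 27 retained libraries, without and with the prefix. ENSBTAG00000008827 was at 0.39 without it (adjusted p = 0.94, edgeR) and turned to -1.12 with it (adjusted p = 0.671, edgeR). No paired analysis was possible because no healthy medium follicle shares a prefix with a healthy large one. Among the other follicles, where some do, the prefix entered as a covariate. The lowest total was 30589555 counts.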
